A study of Rattus norvegicus with 9 samples.

Results

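The genes described here are the Wnt ligands, the frizzled receptors, the secreted inhibitors of Wnt signaling (Sfrp, Frzb, Dkk, and Wif1), the R-spondins, and the R-spondin receptors Lgr4, Lgr5, and Lgr6 of rat adipose-derived mesenchymal stem cells (ASCs). Membership was decided by gene symbol, and 46 of the 35362 genes in the deposited count table carried such a name. Of these, 19 were ligands, 10 were frizzled receptors, 10 were secreted inhibitors, 4 were R-spondins, and 3 were Lgr receptors. ASCs were grown from the subcutaneous fat of the groin (SASCs), the perirenal fat around the kidney (PASCs), and the epididymal fat beside the testis (EASCs), and their RNA was sequenced as bulk total RNA at passage 3. The rats were male Sprague Dawley animals aged 6 weeks, with no genetic change and no drug treatment named, and they had been starved before their fat was taken. All groups had been plated from collagenase digests after a short attachment, with no sorting step named. The table holds 3 samples of each group, whereas the methods give 6 wells per group, and whether the 3 samples came from separate rats is not stated. The p-values below therefore measure the spread between these samples, which may be technical.

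Wnt ligands are secreted lipid-modified proteins that bind frizzled receptors. With the co-receptors Lrp5 and Lrp6 they protect β-catenin from the destruction complex, so that it joins TCF/LEF factors at target genes, and with other co-receptors they act on cell polarity and movement without β-catenin. Sfrp proteins, Frzb, and Wif1 bind ligands outside the cell, several Dkk proteins block the co-receptors, and R-spondins, through Lgr receptors, keep frizzled receptors at the surface. In fat, β-catenin signaling is known to hold precursor cells back from becoming adipocytes.

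Total counts ranged from 17591916 to 30299032 per sample. The floor of 3 counts corresponded to between 0.104 and 0.159 CPM, the counts scaled to a common library size after TMM, the edgeR method that adjusts library sizes for composition. Ribosomal RNA genes took between 10.2% and 15.3% of counts in SASCs, between 22.2% and 32.7% in PASCs, and between 15.8% and 40.1% in EASCs. All 8 of the 8 ASC markers listed were detected in every sample. Compared with SASCs, 2 of them (Eng and Itgb1) were called higher and 1 (Pdgfra) lower in EASCs, and 2 (Pdgfra and Cd34) were called lower in PASCs. The summed level of 8 mesothelial markers was between 20.01 and 21.5 CPM in SASCs, between 98.3 and 105.6 CPM in PASCs, and between 131.6 and 142.9 CPM in EASCs, and Krt18 was at 0 in every SASC sample while Krt19 was at most 0.278 CPM in any sample. The summed level of 6 smooth muscle markers was 192.5 to 205.5, 2921 to 3219, and 6424 to 6787 CPM in the same order, and all 6 were called higher in both visceral groups. These lists moved with the groups that every comparison below is about, and their part in the Wnt results was not tested. In bulk RNA, fewer cells of a type and less RNA per cell cannot be told apart.

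The identity of each row was checked before its values were read. The NCBI gene ID beside the name matched the symbol in RefSeq for 43 of the 46 genes. The row named Fzd7 (chr9:66057514-66153521, rn6) carried the ID of Cdk15, a cyclin-dependent kinase, whereas the ID of Fzd7 stood on a row named LOC100360552 (chr9:66305731-66308550). That row is 2820 bases long, and the RefSeq gene Fzd7 spans 2820 bases. The RefSeq gene Cdk15 spans 93460 bases, near the stretch covered by the row named Fzd7. By ID and span, LOC100360552 is thus the row to read as Fzd7, and the row named Fzd7 is more likely Cdk15. Values of both rows are given below under these names. The row named Dkk4 carried the ID and the description of Dkk2, and the row named Fzd10 carried the ID of Fzd2, so these 2 rows are uncertain. They lie on chr16 and chr12, whereas Dkk2 and Fzd2 had rows of their own with matching IDs on chr2 and chr10.

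The promoters of 4 genes are shown because these genes carry the largest shifts of their role among those with a RefSeq window (Sfrp2, Rspo1, and Wnt11) or the question of identity (Fzd7). Each window runs from 250 bases before to 50 bases after the annotated start and was read from RefSeq on build GRCr8. They lie at chr2:171387286-171387585 (plus strand) for Sfrp2, chr5:142536040-142536339 (plus strand) for Rspo1, chr1:162549110-162549409 (plus strand) for Wnt11, and chr9:68425288-68425587 (plus strand) for Fzd7. Capitals mark the letters CTTTG followed by AT, AA, TT, or TA, which TCF/LEF factors are known to bind, searched on both strands.
Sfrp2: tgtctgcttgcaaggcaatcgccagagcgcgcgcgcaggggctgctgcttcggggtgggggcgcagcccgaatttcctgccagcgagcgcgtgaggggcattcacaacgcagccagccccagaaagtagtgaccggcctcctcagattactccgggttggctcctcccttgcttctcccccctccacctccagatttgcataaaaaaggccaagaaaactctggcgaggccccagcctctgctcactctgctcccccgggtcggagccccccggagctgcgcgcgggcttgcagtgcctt
Rspo1: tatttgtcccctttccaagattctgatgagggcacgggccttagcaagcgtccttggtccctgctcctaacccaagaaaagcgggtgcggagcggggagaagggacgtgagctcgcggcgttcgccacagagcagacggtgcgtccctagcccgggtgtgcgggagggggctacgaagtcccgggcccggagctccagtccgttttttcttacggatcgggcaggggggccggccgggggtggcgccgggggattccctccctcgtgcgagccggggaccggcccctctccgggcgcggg
Wnt11: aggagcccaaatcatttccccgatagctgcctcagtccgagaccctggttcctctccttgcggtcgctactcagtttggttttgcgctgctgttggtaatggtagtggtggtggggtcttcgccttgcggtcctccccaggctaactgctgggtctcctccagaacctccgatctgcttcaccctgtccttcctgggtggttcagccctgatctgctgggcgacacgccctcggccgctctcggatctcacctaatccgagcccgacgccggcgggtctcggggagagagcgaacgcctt
Fzd7: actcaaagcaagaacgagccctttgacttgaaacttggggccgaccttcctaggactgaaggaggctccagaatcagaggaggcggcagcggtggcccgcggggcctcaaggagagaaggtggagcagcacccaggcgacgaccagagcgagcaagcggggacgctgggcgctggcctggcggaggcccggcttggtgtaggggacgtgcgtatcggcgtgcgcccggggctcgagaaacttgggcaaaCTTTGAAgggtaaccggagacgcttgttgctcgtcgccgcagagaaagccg
In the Fzd7 window the letters began 1 base before the start, and the other 3 windows held none. Windows were found for 32 of the 46 genes. At least 1 match was present in 5 of these 32 (15.6%), namely Dkk1, Sfrp5, Fzd7, Wnt3, and Wnt8a, compared with 17.1% of all 33469 windows. A match is a description of the letters and not a site of binding. The 14 genes without a window were Dkk2, Dkk3, Dkk4, Fzd2, Fzd3, Fzd6, Lgr5, Rspo2, Rspo4, Sfrp1, Sfrp4, Wnt5b, Wnt7b, and Wnt10b.

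Genes were tested with the quasi-likelihood test of edgeR, and a DEG had a fold change above 2 and a Benjamini-Hochberg adjusted p under 0.05 over the 14770 genes tested. Of the 46 Wnt genes, 25 passed the filter on low counts. Another 5 (Dkk1, Rspo2, Wnt3a, Wnt8a, and Wnt8b) had 0 counts in every sample, which allows a level of up to the floor of 0.104 to 0.159 CPM where counts are independent, and more where both mates of a read pair were counted. In EASCs compared with SASCs, 7 of the 25 rose and 8 fell, where 13.6% of all genes tested were upregulated and 14.2% downregulated. In PASCs compared with SASCs, 6 rose and 7 fell, beside 12.0% and 14.9% of all genes. In EASCs compared with PASCs, 5 were higher and 4 lower, beside 5.19% and 2.20%. The median log2 fold change of the 25 genes was -0.35, -0.45, and -0.10 in the 3 comparisons, and that of all genes was 0.01, -0.01, and -0.01. The 3 comparisons share their samples. With total counts in place of TMM, the median of all genes moved to -0.39 in EASCs and -0.33 in PASCs against SASCs, and the splits of higher and lower Wnt genes became 5 and 11, and 3 and 10. With LOC100360552 in place of the row named Fzd7, they became 8 and 7 in EASCs, and 7 and 6 in PASCs.

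**Figure D1:**
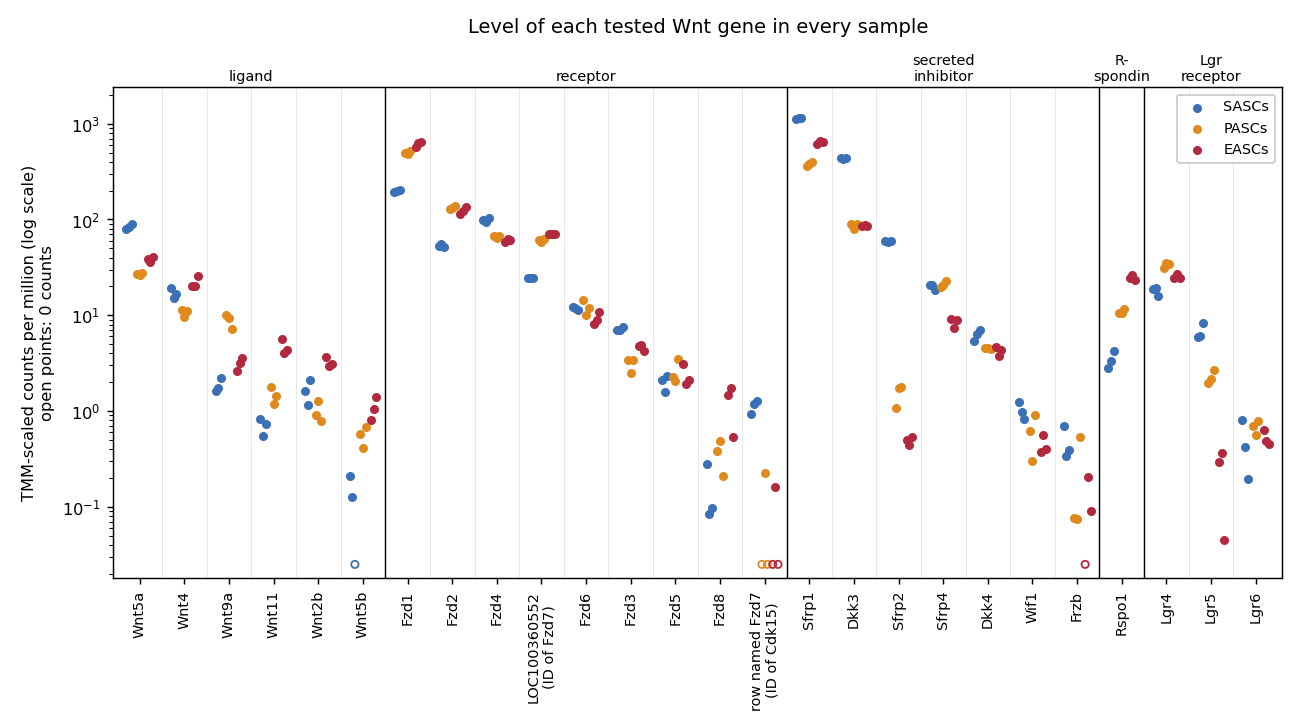
Level of each tested Wnt gene in TMM-scaled CPM (log axis) in each of the 9 samples, grouped by role and ordered by level within a role, with blue for SASCs, orange for PASCs, and red for EASCs. Open points at the bottom are samples with 0 counts, and LOC100360552 is shown beside the row named Fzd7. Sfrp2 had a mean of 58.7 CPM in SASCs, against 1.53 CPM in PASCs and 0.495 CPM in EASCs, whereas Rspo1 rose in the order SASCs, PASCs, EASCs.

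**Figure D2:**
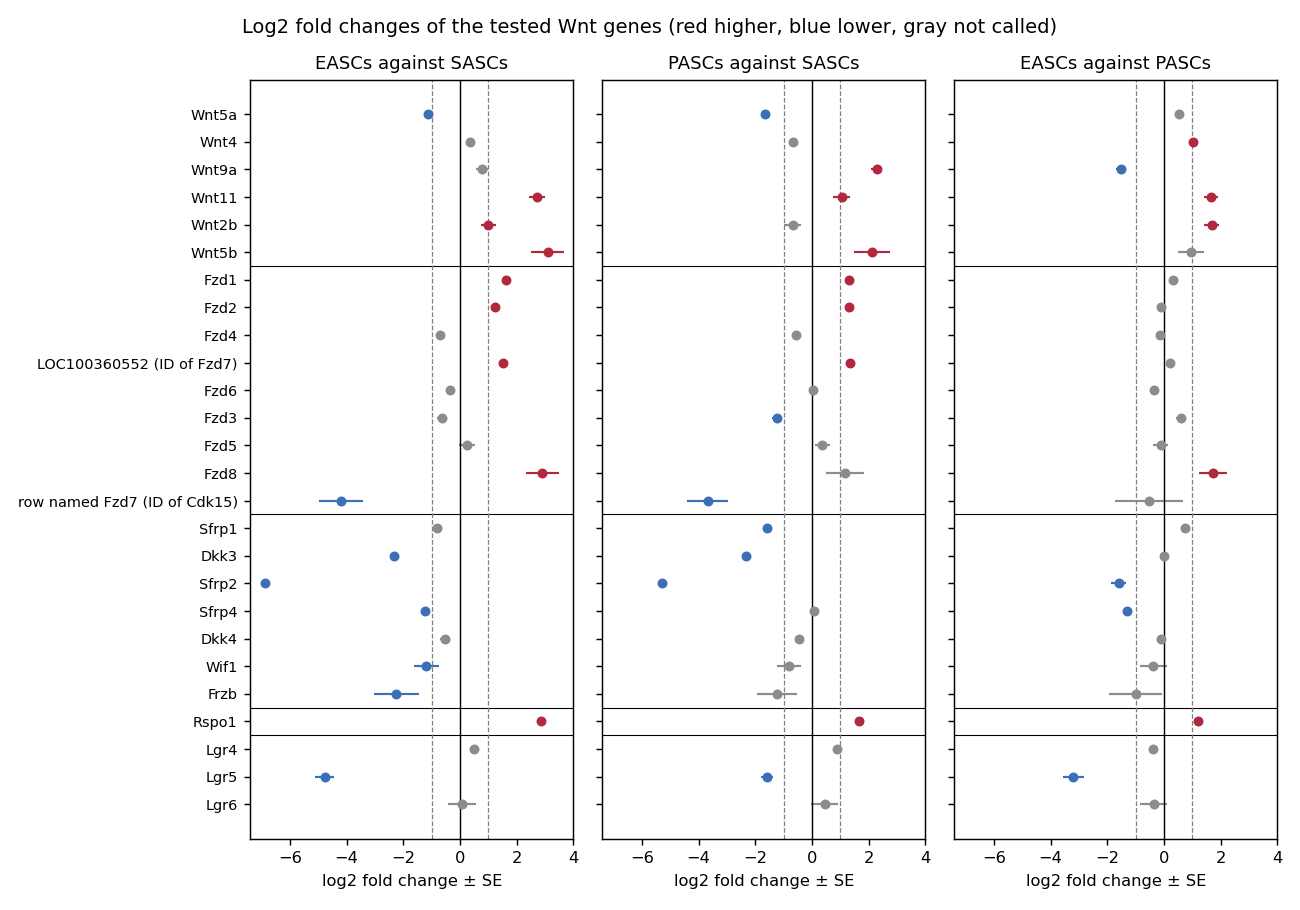
Log2 fold change with its standard error for each tested Wnt gene in the 3 comparisons, with red for higher, blue for lower, and gray for genes not called, and dashed lines at a fold change of 2. Among the secreted inhibitors every call lies to the left of 0 in the panels drawn, and Rspo1 lies to the right in all of them.

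Among the ligands, Wnt5a fell in both visceral groups while Wnt11 and Wnt5b rose, and Wnt9a was highest in PASCs. Of the 6 ligands tested, 3 were upregulated and 1 was downregulated in each comparison, beside 13.6% and 14.2% of all genes in EASCs against SASCs, 12.0% and 14.9% in PASCs against SASCs, and 5.19% and 2.20% between the visceral groups. The other 13 had at most 9 counts in a sample. Wnt5a, best known for signaling without β-catenin, stood at 79.8, 83.4 and 89.8 CPM in SASCs 1 to 3. It stood at 27, 26.1 and 27.6 CPM in PASCs and at 38.9, 35.8 and 40.5 CPM in EASCs. The groups did not overlap, and SASCs were highest and PASCs lowest. The log2 fold change was -1.13 (SE 0.0665, adjusted p = 1.48e-14) in EASCs and -1.65 (SE 0.0686, adjusted p = 7.23e-18) in PASCs compared with SASCs. Between EASCs and PASCs it was 0.51 (SE 0.0706, adjusted p = 1.57e-06), which is under the fold threshold.

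Wnt4, a ligand of kidney and gonad development, stood at 19.3, 15.3 and 16.6 CPM in SASCs, 11.4, 9.64 and 11.2 CPM in PASCs, and 20.4, 20.1 and 25.5 CPM in EASCs. PASCs were lowest and EASCs highest without overlap. Only EASCs against PASCs passed both thresholds, with a log2 fold change of 1.03 (SE 0.113, adjusted p = 3.1e-08). That call was lost at 0.96 without PASCs replicate 2, at 0.92 without EASCs replicate 3, and at 0.94 with total counts. Wnt9a, a ligand with roles in joint formation, stood at 1.6, 1.74 and 2.2 CPM in SASCs, 10, 9.35 and 7.1 CPM in PASCs, and 2.64, 3.16 and 3.58 CPM in EASCs. All PASC samples lay above all others, and EASCs lay above SASCs. Its log2 fold change was 2.28 (SE 0.191, adjusted p = 3.32e-11) in PASCs compared with SASCs and -1.51 (SE 0.178, adjusted p = 1.2e-07) in EASCs compared with PASCs. In EASCs compared with SASCs it was 0.77 (SE 0.21, adjusted p = 0.00204), under the fold threshold.

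Wnt11, a ligand of convergent extension movements, was at 0.834, 0.552 and 0.732 CPM in SASCs, 1.8, 1.2 and 1.43 CPM in PASCs, and 5.69, 4.05 and 4.34 CPM in EASCs. The groups rose in this order without overlap. The log2 fold change was 2.71 (SE 0.272, adjusted p = 1.18e-09) in EASCs and 1.05 (SE 0.305, adjusted p = 0.00355) in PASCs compared with SASCs, and 1.67 (SE 0.245, adjusted p = 4.62e-06) between the visceral groups. The call in PASCs was lost at 0.90 without SASCs replicate 2, at 0.87 without PASCs replicate 1, and at 0.73 with total counts. Wnt2b was at 1.63, 1.15 and 2.1 CPM in SASCs, 0.918, 1.27 and 0.794 CPM in PASCs, and 3.64, 2.96 and 3.13 CPM in EASCs. EASCs lay above both other groups, which overlapped. The log2 fold change was 1.68 (SE 0.279, adjusted p = 2.66e-05) in EASCs compared with PASCs and 1.00 (SE 0.262, adjusted p = 0.00139) compared with SASCs. The latter call sat on the fold threshold and was lost at 0.98 with DESeq2, at 0.60 with total counts, at 0.997 when at least 1 CPM was required in at least 3 samples, at 0.81 without SASCs replicate 2, and at 0.91 without EASCs replicate 1. In PASCs compared with SASCs the value was -0.68 (SE 0.298, adjusted p = 0.0461), not called.

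Wnt5b, the close relative of Wnt5a, went the other way from a much lower level. It was at 0.209, 0.127 and 0 CPM in SASCs, 0.574, 0.411 and 0.688 CPM in PASCs, and 0.795, 1.05 and 1.39 CPM in EASCs, from 6, 3 and 0 counts in SASCs and 19, 26 and 31 counts in EASCs. The groups did not overlap, and SASCs lay near the floor. On the log2 scale the change was 3.09 (SE 0.584, adjusted p = 3.97e-05) in EASCs and 2.13 (SE 0.635, adjusted p = 0.0044) in PASCs compared with SASCs, and 3.89 and 2.93 without SASCs replicate 1. The ligands not tested and not at 0 were Wnt1, Wnt2, Wnt3, Wnt6, Wnt7a, Wnt7b, Wnt9b, Wnt10a, Wnt10b, and Wnt16. Among them Wnt10b, a ligand known to hold back fat cell formation, had 2, 0 and 2 counts in SASCs, 6, 9 and 9 counts in the PASC samples, and 0, 2 and 2 counts in the EASC samples. Wnt2 had 0, 0 and 1, 3, 6 and 3, and 9, 9 and 3 counts in the same groups. Both were left out of the test by the filter on low counts.

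Among the receptors, Fzd1, Fzd2, and the row with the ID of Fzd7 were all higher in both visceral groups, whereas Fzd3 was lower in PASCs and Fzd4 moved less. By name, 3 of 8 receptors tested rose and 1 fell in EASCs, and 2 rose and 2 fell in PASCs, compared with SASCs, beside 13.6% and 14.2%, and 12.0% and 14.9%, of all genes. The row that fell in EASCs, and 1 of the 2 in PASCs, was the row named Fzd7, which carried the ID of Cdk15. LOC100360552, with the ID of Fzd7, was called higher in both. Fzd1, the most abundant receptor per kilobase, stood at 193, 198 and 205 CPM in SASCs, 490.5, 482 and 514 CPM in PASCs, and 573, 626 and 638 CPM in EASCs. The groups rose in this order without overlap. Its log2 fold change was 1.62 (SE 0.0571, adjusted p = 1.55e-19) in EASCs and 1.32 (SE 0.0568, adjusted p = 1.63e-17) in PASCs compared with SASCs. Between EASCs and PASCs it was 0.31 (SE 0.0554, adjusted p = 8.41e-05), under the fold threshold. Fzd2 stood at 52.6, 55.7 and 51.6 CPM in SASCs, 129.9, 132 and 137 CPM in PASCs, and 115, 123 and 135 CPM in EASCs. Both visceral groups lay above SASCs and overlapped each other. The log2 fold change of Fzd2 was 1.22 (SE 0.0616, adjusted p = 5.32e-16) in EASCs and 1.32 (SE 0.0616, adjusted p = 9.73e-17) in PASCs. With total counts, Fzd1 in PASCs and Fzd2 in EASCs and PASCs missed the fold threshold at 0.99, 0.82, and 1.00, with the direction kept.

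LOC100360552 and the row named Fzd7 moved in opposite directions. LOC100360552, with the ID of Fzd7, stood at 24.2, 24.4 and 24.3 CPM in SASCs, 61.7, 58.5 and 63.1 CPM in PASCs, and 69.7, 70.2 and 71.3 CPM in EASCs. The groups rose without overlap, and the log2 fold change was 1.54 (SE 0.0633, adjusted p = 5.43e-18) in EASCs and 1.33 (SE 0.0635, adjusted p = 1.57e-16) in PASCs compared with SASCs. The row named Fzd7 was at 0.939, 1.19 and 1.27 CPM in SASCs, 0, 0.224 and 0 CPM in PASCs, and 0, 0.162 and 0 CPM in EASCs. Its counts were 27, 28 and 26 in SASCs, 0, 6 and 0 in the PASC samples, and 0, 4 and 0 in the EASC samples. It was downregulated by a log2 fold change of -4.20 (SE 0.792, adjusted p = 3.8e-05) in EASCs and -3.69 (SE 0.738, adjusted p = 8.12e-05) in PASCs, values that depend on the prior count of the fit because 4 of the 6 visceral samples were at 0. They also rested on single samples, with -7.75 without EASCs replicate 2, and with -7.74 without PASCs replicate 2 and -3.08 without PASCs replicate 1.

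Fzd4, known as the receptor of norrin in the eye, stood at 98.6, 95.1 and 104 CPM in SASCs, 67.6, 63.8 and 67.6 CPM in PASCs, and 58, 62.8 and 60.7 CPM in EASCs. SASCs were highest and the groups did not overlap, but the log2 fold changes of -0.71 and -0.58 against SASCs were under the threshold. Fzd3, a receptor of axon guidance and cell polarity, stood at 7.02, 7.09 and 7.62 CPM in SASCs, 3.4, 2.47 and 3.39 CPM in PASCs, and 4.77, 4.95 and 4.21 CPM in EASCs. PASCs were lowest, EASCs lay between, and the log2 fold change in PASCs compared with SASCs was -1.24 (SE 0.166, adjusted p = 2.29e-07). Fzd6, a polarity receptor, was at 12.2, 11.8 and 11.5 CPM in SASCs, 14.3, 9.98 and 11.8 CPM in PASCs, and 8.16, 8.88 and 10.9 CPM in EASCs. The ranges of PASCs overlapped those of both other groups, while EASCs lay below SASCs, and Fzd6 was not called in any comparison. Fzd5 was at 2.09, 1.57 and 2.34 CPM, 2.26, 2.06 and 3.5 CPM, and 3.1, 1.91 and 2.1 CPM in the same order. All 3 groups overlapped and no comparison was called. Fzd8 was at 0.278, 0.0849 and 0.0976 CPM in SASCs, 0.383, 0.486 and 0.212 CPM in PASCs, and 1.47, 1.74 and 0.537 CPM in EASCs. EASCs lay above both other groups, although EASC sample 3 was far below the other EASC samples. On the log2 scale the change was 2.91 (SE 0.568, adjusted p = 5.87e-05) against SASCs and 1.75 (SE 0.497, adjusted p = 0.00812) against PASCs, and without EASCs replicate 2 the latter lost its call at 1.43. Without SASCs replicate 1 the former was 3.71. Fzd9 and the uncertain row Fzd10 were not tested and had at most 6 counts in a sample.

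The secreted inhibitors were lower in the visceral groups wherever a call was made. Of the 7 tested, 5 were downregulated in EASCs and 3 in PASCs compared with SASCs, and 2 were lower in EASCs than in PASCs, where 14.2%, 14.9%, and 2.20% of all genes were lower. By edgeR or DESeq2, 0 were upregulated in any comparison, where 13.6%, 12.0%, and 5.19% of all genes were higher by edgeR. With 7 genes, 0 is not far from those shares. At an unadjusted p under 0.05 and without a fold threshold, 0 were higher in either visceral group than in SASCs, and 1, Sfrp1, was higher in EASCs than in PASCs. At that threshold 7 were lower in EASCs and 4 in PASCs than in SASCs, and 2 were lower in EASCs than in PASCs. The share of all genes at that threshold is not given here, so these counts cannot be set beside it. Sfrp2 (chr2:182723732-182731277, rn6), a frizzled-related protein that binds Wnt outside the cell, stood at 59.5, 57.6 and 58.9 CPM in SASCs. It was at 1.07, 1.72 and 1.8 CPM in PASCs and at 0.502, 0.446 and 0.537 CPM in EASCs. The groups were far apart, with EASCs below every PASC sample. Its log2 fold change was -6.88 (SE 0.149, adjusted p = 2.79e-24) in EASCs and -5.28 (SE 0.125, adjusted p = 2.5e-23) in PASCs compared with SASCs, and -1.60 (SE 0.255, adjusted p = 1.47e-05) between the visceral groups. In linear terms Sfrp2 was 118-fold lower in EASCs and 38.8-fold lower in PASCs than in SASCs.

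Sfrp1, the most abundant of the 46 genes per kilobase in SASCs, stood at 1116, 1140 and 1142 CPM in SASCs, 360.1, 381 and 396 CPM in PASCs, and 612, 658 and 652 CPM in EASCs. The groups did not overlap, with SASCs highest and PASCs lowest. Only PASCs passed the fold threshold against SASCs, with a log2 fold change of -1.58 (SE 0.0562, adjusted p = 1.97e-19). The value was -0.82 (SE 0.0551, adjusted p = 2.81e-13) in EASCs compared with SASCs and 0.76 (SE 0.0554, adjusted p = 1.21e-11) in EASCs compared with PASCs. Dkk3, a divergent Dickkopf protein, stood at 443, 426 and 443 CPM in SASCs, 90.3, 79.7 and 89.4 CPM in PASCs, and 85, 87.5 and 85.9 CPM in EASCs. Both visceral groups lay far below SASCs and overlapped each other. On the log2 scale the change was -2.34 (SE 0.0575, adjusted p = 4.29e-23) in EASCs and -2.34 (SE 0.0576, adjusted p = 5.68e-23) in PASCs.

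Sfrp4 was called lower in EASCs against both other groups. It stood at 20.9, 20.7 and 18.3 CPM in SASCs, 19.5, 20.5 and 23 CPM in PASCs, and 9.13, 7.42 and 8.86 CPM in EASCs. SASCs and PASCs overlapped and EASCs lay below both, with log2 fold changes of -1.24 (SE 0.106, adjusted p = 5.11e-11) against SASCs and -1.31 (SE 0.106, adjusted p = 1.01e-10) against PASCs. In PASCs compared with SASCs the value was 0.07 (SE 0.0976, adjusted p = 0.546). Wif1, an inhibitor that binds Wnt directly, was at 1.25, 0.976 and 0.83 CPM in SASCs, 0.612, 0.299 and 0.90 CPM in PASCs, and 0.377, 0.568 and 0.403 CPM in EASCs. EASCs lay below SASCs, and PASCs overlapped both. Its log2 fold change in EASCs compared with SASCs was -1.18 (SE 0.446, adjusted p = 0.021), and the call was lost at -0.9996 without SASCs replicate 1, at -1.07 without EASCs replicate 1, and at -1.11 without EASCs replicate 3. Frzb, another frizzled-related protein, stayed under 1 CPM, with 20, 8 and 8 counts in SASCs, 2, 2 and 10 counts in the PASC samples, and 0, 5 and 2 counts in the EASC samples. It was called lower in EASCs than in SASCs at a log2 fold change of -2.24 (SE 0.80, adjusted p = 0.0151), and lost the call at -1.83 without SASCs replicate 1 and at -1.67 without EASCs replicate 1, while without EASCs replicate 2 it was -3.33.

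The row named Dkk4 was at 5.32, 6.37 and 6.93 CPM in SASCs, 4.51, 4.6 and 4.45 CPM in PASCs, and 4.61, 3.77 and 4.38 CPM in EASCs. SASCs lay above both visceral groups, which overlapped, and no comparison passed the fold threshold. Dkk2 and Sfrp5 were not tested. Dkk2 had 2, 0 and 4 counts in SASCs, 5, 4 and 3 counts in the PASC samples, and 11, 7 and 7 counts in the EASC samples, and Sfrp5 had at most 2 counts in a sample.

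The R-spondins and Lgr receptors, which act together on frizzled turnover, split between the groups, with Rspo1 rising and Lgr5 falling from SASCs to PASCs to EASCs. Rspo1 (chr5:142986526-143007847, rn6) stood at 2.78, 3.35 and 4.25 CPM in SASCs, 10.6, 10.5 and 11.5 CPM in PASCs, and 24.7, 26.3 and 23.4 CPM in EASCs. The groups did not overlap. Its log2 fold change was 2.86 (SE 0.127, adjusted p = 2.75e-17) in EASCs and 1.67 (SE 0.134, adjusted p = 1.38e-11) in PASCs compared with SASCs, and 1.19 (SE 0.109, adjusted p = 1.12e-09) in EASCs compared with PASCs. Lgr5, known as a marker of stem cells in the gut, stood at 5.95, 6.11 and 8.2 CPM in SASCs, 1.95, 2.17 and 2.65 CPM in PASCs, and 0.293, 0.365 and 0.0447 CPM in EASCs. The groups fell in this order without overlap, and EASC sample 3 had 1 count. On the log2 scale the change was -4.78 (SE 0.326, adjusted p = 4.19e-13) in EASCs and -1.59 (SE 0.229, adjusted p = 7.65e-07) in PASCs compared with SASCs, and -3.20 (SE 0.37, adjusted p = 8.46e-08) between the visceral groups. Lgr4, the widely expressed member, stood at 18.8, 19.1 and 16 CPM in SASCs, 31, 34.8 and 34.2 CPM in PASCs, and 24.7, 27 and 24.4 CPM in EASCs. PASCs were highest and SASCs lowest without overlap, but the log2 fold changes of 0.88 in PASCs and 0.49 in EASCs did not reach the threshold. Lgr6 stayed under 1 CPM, with 4 to 23 counts per sample, and was not called. Rspo3 had at most 8 counts in a sample, and Rspo4 had 0, 2 and 0 counts in SASCs, 0, 6 and 1 counts in the PASC samples, and 8, 13 and 12 counts in the EASC samples.

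Levels were compared between genes per kilobase of the gene length in the table, which is 1211 bases for Wnt4 and 4988 bases for Wnt5a and so weighs on the order. The summed level of the secreted inhibitors was 418.7 ± 2.97 CPM per kilobase (SD, n = 3) in SASCs, 129.0 ± 5.88 in PASCs, and 188.8 ± 6.07 in EASCs. That of the receptors, with LOC100360552 as Fzd7, was 102.3 ± 1.66 in SASCs, 218.5 ± 7.17 in PASCs, and 243.1 ± 12.8 in EASCs. Summed inhibitors exceeded receptors in SASCs, and receptors exceeded inhibitors in both visceral groups. The ligands summed to 32.9 ± 1.69 in SASCs, 18.4 ± 0.906 in PASCs, and 30.6 ± 3.1 in EASCs, and the ranges of SASCs and EASCs overlapped. The R-spondins were at 1.65 ± 0.371 in SASCs, rose to 5.14 ± 0.246 in PASCs, and reached 11.95 ± 0.545 in EASCs. The Lgr receptors were at 7.38 ± 0.131, 10.4 ± 0.659, and 7.42 ± 0.443 in the same order. With 3 samples against 3, no exact permutation test of such a sum can go below p = 0.10, and none was run.

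**Figure D3:**
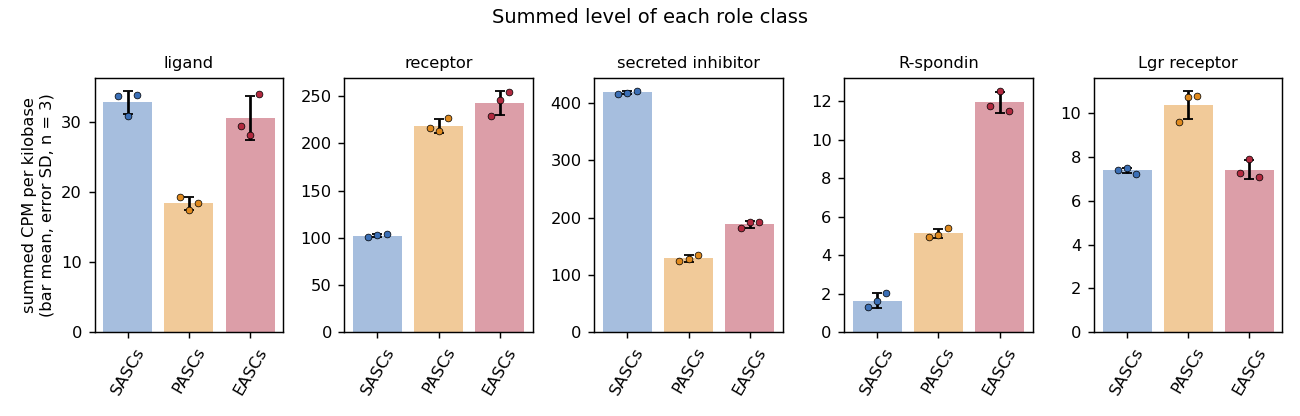
Summed CPM per kilobase of each role class (bars are means and error bars the SD of 3 samples, points are samples), each panel with its own axis from 0. The secreted inhibitors lie at 418.7 in SASCs, 129.0 in PASCs, and 188.8 in EASCs, while the receptors and R-spondins rise.

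The make-up of each class also shifted. Wnt5a made up 51.5% ± 3.63 (SD, n = 3) of the summed ligand level per kilobase in SASCs, 29.3% ± 1.09 in PASCs, and 25.2% ± 1.35 in EASCs. Wnt4 made up 42.8% ± 3.67, 48.1% ± 2.32, and 59.2% ± 2.44 in the same order, and Wnt9a reached 14.3% ± 2.46 in PASCs. Fzd1 held the largest receptor share in every group, at 44.2% ± 0.635 in SASCs, 51.5% ± 0.0582 in PASCs, and 57.3% ± 0.602 in EASCs. Among the inhibitors Sfrp1 rose from 69.5% ± 0.554 to 75.5% ± 0.921 and 87.2% ± 0.623, although its own level per kilobase fell from 291 ± 3.77 to 97.4 ± 4.68 and 165 ± 6.41 CPM per kilobase. Sfrp2 made up 7.09% ± 0.143 of the inhibitor level in SASCs. Lgr5 made up 29.3% ± 6.0 of the Lgr level in SASCs, 6.94% ± 0.807 in PASCs, and 0.988% ± 0.687 in EASCs, the rest being nearly all Lgr4.

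**Figure D4:**
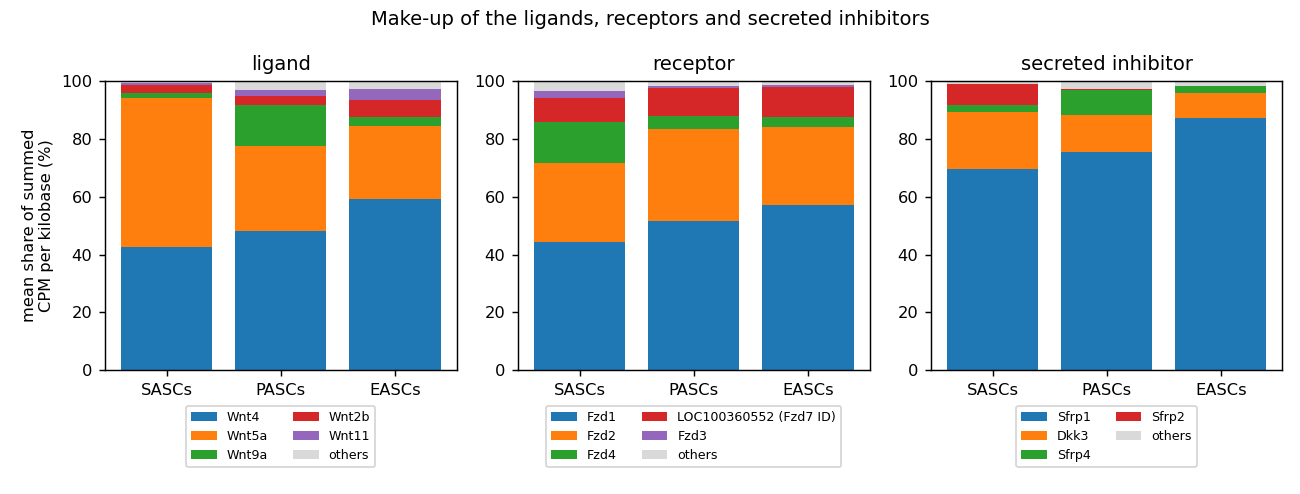
Mean share of each gene in the summed CPM per kilobase of the ligands, receptors, and secreted inhibitors in each group (n = 3), in percent, with genes under 2.5% in every group joined in gray. Wnt5a holds 51.5% of the ligand level in SASCs and 25.2% in EASCs, while Sfrp1 holds most of the inhibitor level in every group.

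The rest of the pathway was read from a list of 60 genes, of which 51 were tested. Against SASCs, 11 rose and 7 fell in EASCs, and 9 rose and 5 fell in PASCs, while 4 were higher and 2 lower in EASCs than in PASCs. The shares called higher and lower were 21.6% and 13.7% in EASCs, beside 13.6% and 14.2% of all genes, and 17.6% and 9.8% in PASCs, beside 12.0% and 14.9%. With total counts the numbers higher and lower became 8 and 11 in EASCs, and 6 and 9 in PASCs. Between the visceral groups the shares were 7.84% and 3.92%, beside 5.19% and 2.20% of all genes. Of the 12 tested genes of the cytoplasmic and destruction complex, among them Ctnnb1 for β-catenin, 0 were called in any comparison by edgeR or DESeq2. At an unadjusted p under 0.05, without a fold threshold, 6 were higher and 3 lower in EASCs than in SASCs, 6 higher and 4 lower in PASCs than in SASCs, and 4 higher and 1 lower in EASCs than in PASCs. The share of all genes at this unadjusted threshold is not given, so these counts have no background beside them. Ctnnb1 stood at 332, 319 and 313 CPM in SASCs, 338, 340.5 and 334 CPM in PASCs, and 375, 391 and 386 CPM in EASCs.

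Of the 7 co-receptors and alternative receptors tested, 1 rose and 1 fell in each visceral group compared with SASCs, which is near the shares of all genes (13.6% and 14.2% in EASCs, and 12.0% and 14.9% in PASCs). Ror1, a receptor for Wnt5a, stood at 68.6, 68 and 71.9 CPM in SASCs, 10.9, 10.3 and 12.4 CPM in PASCs, and 9.63, 12.5 and 11.5 CPM in EASCs, with log2 fold changes of -2.63 in EASCs and -2.64 in PASCs. Ptk7, a polarity co-receptor, went the other way, with 119, 119 and 124 CPM in SASCs, 384, 375 and 388 CPM in PASCs, and 441, 472 and 484 CPM in EASCs. Its log2 fold change was 1.95 in EASCs and 1.67 in PASCs. Neither gene overlapped between SASCs and the visceral groups. Porcn, the enzyme that attaches the lipid to Wnt ligands, was upregulated in EASCs against SASCs (log2 fold change 1.40) and against PASCs (1.07). Among the planar cell polarity genes 4 of 7 rose in EASCs and 2 in PASCs, beside 13.6% and 12.0% of all genes. The 4 included Celsr2 and Celsr3, at means of 0.703 and 1.18 CPM in EASCs, and Celsr2 had 3 counts in EASC sample 3. These genes were named after their values were seen. The call of Celsr3 was lost with total counts and without SASCs replicate 3, EASCs replicate 1, or EASCs replicate 3, at 0.68 to 1.07. Prickle1, by contrast, had a mean of 34.4 CPM in SASCs against 138 CPM in PASCs and 141 CPM in EASCs.

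Of the 5 other secreted or surface modulators tested, 4 fell in both visceral groups, beside 14.2% of all genes in EASCs and 14.9% in PASCs. Gpc3, a proteoglycan of the cell surface, had means of 45.4, 1.22, and 1.84 CPM in SASCs, PASCs, and EASCs. Cthrc1, a secreted partner of polarity signaling, had means of 59.9, 13.7, and 8.29 CPM. The inhibitor Apcdd1 had means of 11.9, 1.54, and 1.93 CPM, and Igfbp4 also fell. The related proteoglycan Gpc4 instead rose in EASCs, by 1.03 on the log2 scale relative to SASCs, and lost that call at 0.62 with total counts, at 0.99 without SASCs replicate 2, and at 0.98 without EASCs replicate 3. Of the 8 nuclear genes tested, 1 was higher and 1 lower in EASCs and 2 were higher in PASCs compared with SASCs, and 2 were lower in EASCs than in PASCs. The shares of all genes were 13.6% and 14.2% in EASCs, 12.0% higher in PASCs, and 2.20% lower in EASCs than in PASCs. Tcf7l2, a TCF factor, fell in EASCs against SASCs (log2 fold change -1.71) and against PASCs (-1.19). The related factors Lef1 and Tcf7 lay below the level set for naming and were chosen after their values were seen. Lef1 was at 0.174, 0.1698 and 0.0976 CPM in SASCs, 0.0765, 0.486 and 1.06 CPM in PASCs, and 0.879, 0.446 and 1.21 CPM in EASCs. EASCs lay above SASCs, and PASCs overlapped both. Lef1 was called higher in EASCs than in SASCs (2.44, SE 0.676, adjusted p = 0.00237). Its value in PASCs was 1.73 (SE 0.724, adjusted p = 0.0366), a call lost under 7 of 15 alternatives, namely the replicate block (1.59), total counts (1.43), the removal of any SASC sample (1.54 to 1.87), of PASCs replicate 2 (1.77), and of PASCs replicate 3 (0.89). Tcf7 had means of 1.41, 4.21, and 1.78 CPM in the same order, was called higher in PASCs than in SASCs (1.64), and was called lower in EASCs than in PASCs (-1.24).

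Among the 9 tested target and feedback genes, 3 rose and 1 fell in EASCs and 4 rose and 0 fell in PASCs compared with SASCs, beside 13.6% and 14.2% of all genes in EASCs and 12.0% and 14.9% in PASCs. Between EASCs and PASCs 1 was higher and 0 lower, beside 5.19% and 2.20% of all genes. DESeq2 gave the same numbers. At an unadjusted p under 0.05, without a fold threshold, 4 were higher and 4 lower in EASCs than in SASCs, 4 higher and 4 lower in PASCs than in SASCs, and 2 higher and 4 lower in EASCs than in PASCs. No share of all genes at this unadjusted threshold is given to set beside these counts. Wisp1, a secreted target, stood at 17.3, 14.7 and 20.2 CPM in SASCs, 43.4, 40.6 and 47.8 CPM in PASCs, and 54.2, 60.7 and 56.9 CPM in EASCs, with log2 fold changes of 1.73 in EASCs and 1.34 in PASCs. Nkd2, a feedback inhibitor, rose in PASCs (1.23, and 0.91 with total counts, not called), and Twist1 fell in EASCs (-1.20). Axin2, a widely used feedback target of β-catenin, lay below the level set for naming and was chosen after its values were seen. It stood at 0.243, 0.0849 and 0.0488 CPM in SASCs, 3.1, 2.09 and 2.65 CPM in PASCs, and 3.6, 3.24 and 4.25 CPM in EASCs. The SASC samples were near the floor and no group overlapped them, and the log2 fold change was 4.71 (SE 0.387, adjusted p = 2.14e-11) in EASCs and 4.21 (SE 0.402, adjusted p = 4.55e-10) in PASCs. Without SASCs replicate 1 these values for Axin2 were 5.65 and 5.15. Nkd1, chosen in the same way, had log2 fold changes of 1.36 and 1.10, which missed the threshold at 0.96 and 0.76 with total counts, and the latter also at 0.95 without SASCs replicate 3. Ccnd1 was at means of 145, 141, and 80.5 CPM and Myc at 98.1, 58.6, and 58.2 CPM in SASCs, PASCs, and EASCs, both without a call.

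**Figure D5:**
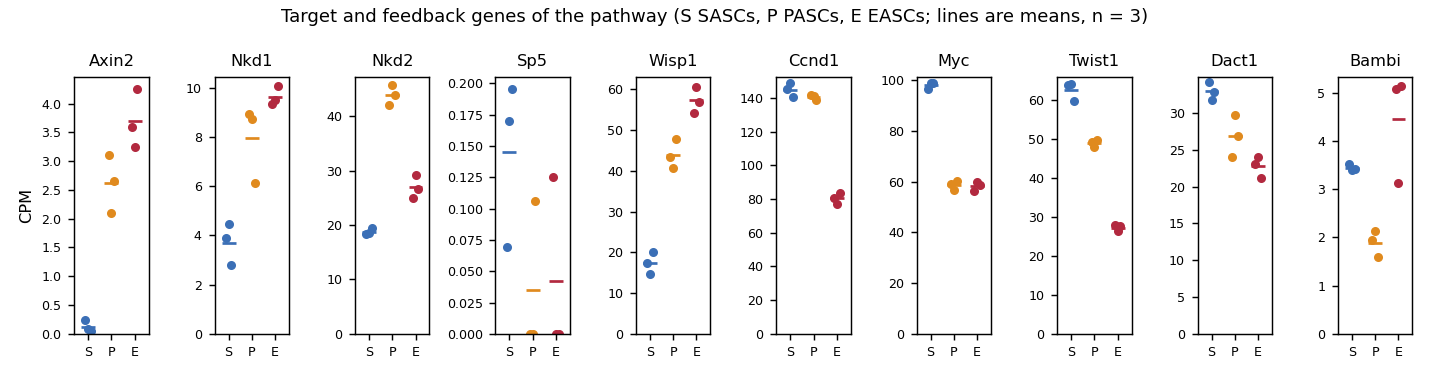
Level in TMM-scaled CPM (linear axes from 0) of the 10 target and feedback genes of the list in each sample of SASCs (S), PASCs (P), and EASCs (E), with lines at the group means (n = 3). Axin2, Nkd1, and Wisp1 lie above SASCs in both visceral groups, while Myc lies below and Ccnd1 is lowest in EASCs.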

How the data were processed

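RNA of 9 samples was sequenced as paired-end reads of 150 bp. After trimming, the authors aligned them with TopHat to rn6 and deposited whole-number counts per gene, which are not normalized. The submitters' processing notes name rn5, while the scaffold names in the table are those of rn6. The counting tool and the use of strand are not given in the sources used here, so overlapping genes may share reads. Low even counts were more frequent than odd ones (9502 values of 2 against 7504 of 1), so mates were probably counted separately and the counts are not independent molecules.

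Samples were grouped by their titles. Counts were scaled by TMM (factors 0.740 to 1.23) and filtered with filterByExpr in edgeR 4.0.16 (R 4.3.3), which left 14770 genes, and the 9 samples were fitted in 1 model of the 3 groups by the quasi-likelihood test. P-values were adjusted by Benjamini-Hochberg over all genes of a comparison, and calls needed an adjusted p under 0.05 with more than a 2-fold change. SE is the log2 fold change divided by the root of F. CPM per kilobase used the deposited gene length. The genes described were found by symbol, and symbols and IDs were checked against RefSeq (GRCr8). They and the gene lists were chosen with earlier results of these data known. Genes at a mean of at least 1 CPM in a group were given per sample, and other pathway genes were named if called at a mean of at least 10 CPM, at most 4 per sublist. Axin2, Nkd1, Lef1, Tcf7, Celsr2, Celsr3, Gpc4, Ctnnb1, Ccnd1, and Myc fell outside this rule and were chosen after their values were seen. Marker lists were for ASCs and for mesothelial, endothelial, leukocyte, smooth muscle, adipocyte, epithelial, and Schwann cells. The fit was tested on simulated data. Chi-square per degree of freedom between replicates of a group was 6.23 to 288, before TMM and with ribosomal RNA genes kept. These values therefore also hold differences in ribosomal RNA share and the counting of mates. The highest was that of EASCs 2 and 3, with 15.8% and 40.1% ribosomal RNA. In the fit after TMM, the common biological coefficient of variation was 0.0685. Alternatives were DESeq2 1.42.0, other scaling, filters, thresholds, samples, removal of ribosomal RNA genes, a replicate block, and leaving out each replicate. Counts read by gene ID for Fzd7, and the alternatives for single pathway genes, were added after seeing the data. Metabolite data were not analysed here.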

Additional observations from a re-analysis of the deposited data

How the results depend on the processing

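Of 39 log2 fold changes of called Wnt genes and LOC100360552, recomputed to 654 values under the alternatives, 634 kept direction and call, 20 kept direction but lost the call, and 0 reversed. In 30 of the 39 the call was kept under every alternative that gave the gene an adjusted p. An alternative in which the gene left the test was not counted as a loss. Wnt5b in PASCs and Fzd8 in EASCs, compared with SASCs, thus rest on 15 alternatives where most genes had 17. Of 38 for called pathway genes, recomputed to 639 values (chosen after seeing the data), 617 kept direction and call, 22 lost the call, and 0 reversed. Counted in the same way, 31 of the 38 kept their call throughout, with Celsr2 resting on 15 alternatives. Lost calls stand beside their genes, except that of Gpc4 in EASCs against PASCs (1.02), lost at 0.93 with total counts, 0.995 without PASCs replicate 1, 0.99 without PASCs replicate 2, and 0.97 without EASCs replicate 3. The number of Wnt genes higher in EASCs than in SASCs fell from 7 to 4 when at least 1 CPM was required in at least 3 samples, where Fzd8 and Wnt5b left the test and Wnt2b missed the fold threshold at 0.997, and was 10 without a filter, where Fzd10, Rspo4, and Wnt2 joined from few counts. The number higher in PASCs than in SASCs fell from 6 to 3 with total counts in place of TMM, a scaling that moved the median of all genes from -0.01 to -0.33. Under that scaling, pathway genes called higher and lower went from 11 and 7 to 8 and 11 in EASCs, and from 9 and 5 to 6 and 9 in PASCs. Leaving out each replicate in turn gave 6 to 8 higher and 6 to 8 lower in EASCs against SASCs, 5 to 7 and 7 to 9 in PASCs against SASCs, and 4 to 6 and 4 in EASCs against PASCs. A fold change above 1.5 gave 8 and 11, 7 and 9, and 7 and 4. Same-numbered samples did not deviate together more than others (r -0.0348 to 0.038 over 9 pairs of samples, and -0.0666 to 0.0674 over 18 with different numbers). This check cannot exclude that the numbers pair the samples, because the noise of single genes can hide a shared deviation. The replicate block gave 7 and 8, 6 and 7, and 5 and 4 Wnt genes, the same numbers as without it, while pathway genes higher in PASCs than in SASCs went from 9 to 8. Differences of a few counts, below about 0.104 to 0.159 CPM, could not be resolved.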

Other observations

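The other marker lists also differed between the groups. The summed level of 5 adipocyte markers was between 87.1 and 95.9 CPM in SASCs, between 19.1 and 20.2 CPM in PASCs, and between 9.24 and 10.1 CPM in EASCs. The 6 endothelial markers summed to 52.2 to 54.4, 13.7 to 16.7, and 36.6 to 39.7 CPM, but they did not move together. Compared with SASCs, 5 were called lower in PASCs and only 1, Kdr, in EASCs, while Tek was called higher in both. The 6 leukocyte markers summed to 39.2 to 41.3, 60.4 to 62.5, and 90.6 to 92.1 CPM, with Cd3e at 0 throughout. The 4 epithelial markers summed to at most 0.209, 2.28, and 1.34 CPM, and the 5 Schwann cell and melanocyte markers to 9.66 to 11.9, 0.583 to 2.13, and 0.203 to 0.716 CPM, with Tyr at 0 throughout. Their part in the Wnt results was not tested.

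The row named Dkk4 lies 278 bases from Polb, the DNA polymerase beta gene on the other strand, which was at 8.17, 6.03 and 6.35 CPM in SASCs, 7.08, 5.46 and 6.20 CPM in PASCs, and 5.69, 7.99 and 6.44 CPM in EASCs. LOC100909849, described as a frizzled-8-like gene, and LOC100912050, described as a Dkk1-like gene, had 0 counts in every sample. Fzd6 overlapped LOC103692891, which held 54 counts in all samples together beside 2383 on Fzd6, and Lgr5 overlapped LOC685207, which held 5 beside 659.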
